A study of Mus musculus with 6 samples.

Results

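The enzymes described are encoded by 10 genes, namely the DNA methyltransferases Dnmt1, Dnmt3a and Dnmt3b, the maintenance cofactors Uhrf1 and Hells, the dioxygenases Tet1, Tet2 and Tet3, and the Polycomb methyltransferases Ezh1 and Ezh2. They were taken by gene symbol, and all 10 were found among the 22026 symbols of the files. RNAseq had been carried out on choroid ECs of 129/B6 mice at P5, while these vessels are still developing, and at P30, after they have differentiated, to compare developing with adult ECs. There were 3 isolations per age, each pooled from 7 animals, and no group carried a transgene, a deletion or a treatment other than the antibody to VE-Cadherin that marked the ECs for sorting. Since animals were pooled, the spread between isolations is not that between animals.

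DNA methylation is copied at each round of replication by Dnmt1, which Uhrf1 brings to the newly made DNA, of which 1 strand is methylated, and Hells is a chromatin remodelling ATPase that opens packed DNA to the methyltransferases. Dnmt3a and Dnmt3b place methyl groups on unmethylated DNA, whereas the Tet enzymes oxidize methylcytosine as a step towards its loss. Ezh2 and Ezh1 are alternative catalytic subunits of Polycomb repressive complex 2 (PRC2), which methylates a lysine of histone H3 at silenced genes. Ezh2 is known from dividing cells and Ezh1 from cells that have left the cycle.

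The values were FPKM, fragment numbers scaled to transcript length and, by upper quartile normalization, to each library, so levels can be compared between genes. Where a gene has 3 values for an age, they are those of replicates 1, 2 and 3 in that order. Read counts were not used here, so depth is unknown and counting errors are not given. The 5 endothelial markers Cdh5, Pecam1, Kdr, Tek and Erg summed to 8316 to 8655 FPKM at P5 and to 7816.5 to 8512 at P30. Of these, 0 of 5 passed both limits of the limma fit given below, with 1 lower and 1 higher at P30 at an unadjusted p under 0.05. Cdh5, which encodes VE-Cadherin, had means of 2971 at P5 and 1885 at P30. It passed the limit of p but not that of 2-fold (difference -0.66 in log2(FPKM + 1), adjusted p = 0.00205 from limma). Kdr had means of 2488 and 3389 (difference 0.44, adjusted p = 0.0338 from limma). The ages did not overlap in either gene. Markers of other cells were also present, and their part in the results was not tested. The 6 pericyte and smooth muscle markers summed to 338 to 1531 at P5 and 1891 to 6235 at P30 (1 of 6 passed, higher at P30). The 6 RPE markers summed to 56.8 to 124 and 418 to 3496 (4 of 5 tested passed, higher at P30), and Rpe65 was listed at 0 in P5 replicates 2 and 3. Sums were 2.21 to 9.56 and 39.1 to 344 for 5 photoreceptor markers (3 of 5 passed, with Rcvrn listed at 0 in every P5 isolation), and 224 to 489 and 1152 to 2493 for 4 fibroblast markers (1 of 4 passed), all higher at P30. The 4 leukocyte markers summed to 441 to 677 and 252 to 635 (1 of 4 passed, Ptprc, higher at P5), 4 melanocyte markers to 83.2 to 379 and 92.4 to 1034.5, and 3 Schwann cell markers to 5.85 to 35.7 and 25.6 to 158, with 0 passing in either of the last 2 lists (0 melanocyte and 2 Schwann cell markers at an unadjusted limma p under 0.05). At that unadjusted p, 5 pericyte and smooth muscle, 5 RPE, 4 photoreceptor and 3 fibroblast markers were higher at P30. Among the leukocyte markers, 2 were lower at P30.

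Of the 10 genes, 9 had lower FPKM at P30 than at P5, and 1, Ezh1, had higher FPKM. The ages were compared with limma on log2(FPKM + 1), P30 minus P5, over the 12481 genes with a mean of at least 5 FPKM in at least 1 age, which all 10 passed. Uhrf1 and Hells met this minimum only at P5, since their P30 means were 2.74 and 3.34. Some genes of the lists below, Cbx2, Pclaf and Cdca7 among them, also met it only at P5. Past an adjusted p (Benjamini-Hochberg) of 0.01 and with mean FPKM + 1 differing 2-fold or more, 6 genes fell, namely Uhrf1, Hells, Ezh2, Dnmt3b, Tet1 and Dnmt1, whereas Ezh1 rose. Of all genes tested, 5.82% were higher at P5 by these limits and 5.89% were higher at P30. Dnmt3a, Tet2 and Tet3 did not pass. In 9 of the 10 genes all P30 isolations lay below all P5 isolations, which held for 33.0% of all genes tested, and in Ezh1 all P30 isolations lay above, which held for 22.0%. The median difference was -1.18 over the 10 genes and -0.10 over all genes tested. In bulk RNA, fewer cells that carry a transcript and less of it per cell cannot be told apart.

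**Figure D1:**
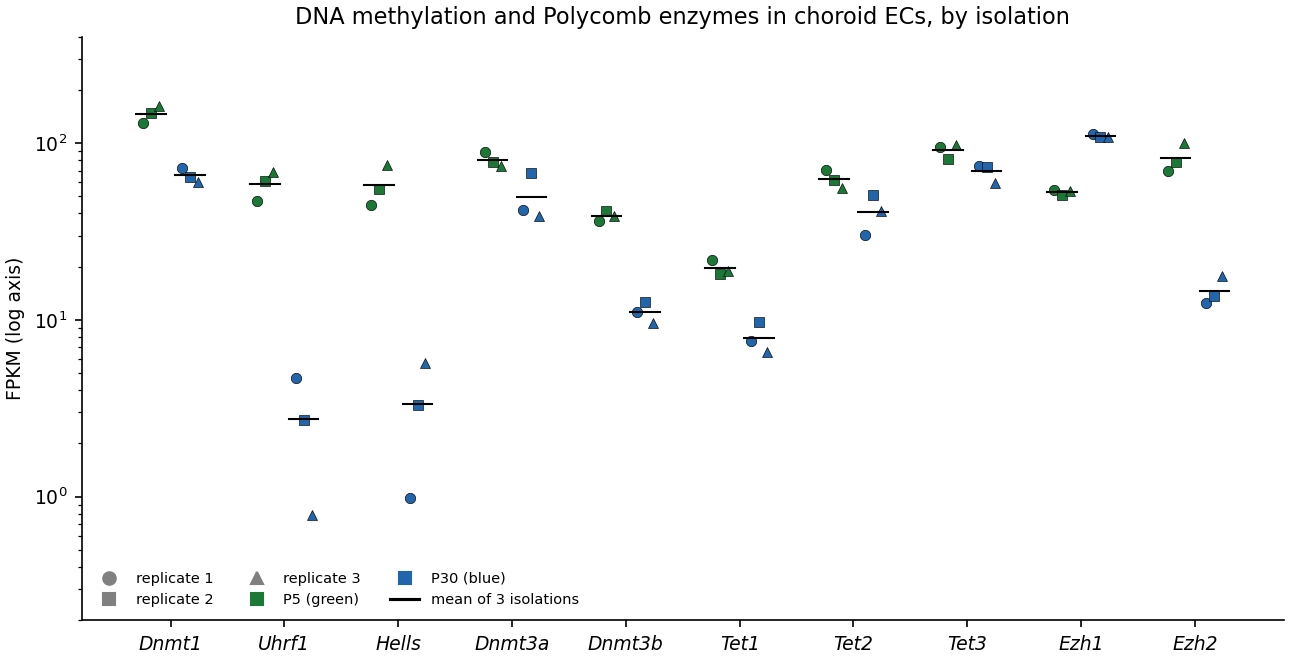
FPKM of each of the 10 genes in each of the 6 isolations (log axis), with P5 in green, P30 in blue, 1 symbol per replicate and a line at the mean of 3 isolations. The ages do not overlap in any of the 10 genes, and Uhrf1 and Hells reach the lowest P30 means, 2.74 and 3.34.

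Uhrf1 and Hells had the largest differences of the 10 genes. Uhrf1, a ubiquitin ligase that reads DNA methylated on 1 strand, had 47.2, 61.0 and 68.7 FPKM at P5 against 4.71, 2.72 and 0.79 at P30. Its mean fell from 58.9 ± 10.9 (SD, n = 3) to 2.74 ± 1.96, which was 21.5 times lower in FPKM (difference -4.14 in log2(FPKM + 1), SE 0.42, adjusted p = 0.000539 from limma). Hells had 44.5, 55.1 and 75.2 FPKM at P5 and 0.98, 3.32 and 5.71 at P30. It fell from 58.3 ± 15.6 to 3.34 ± 2.37, 17.5 times lower (difference -3.91, SE 0.45, adjusted p = 0.000874). The P30 isolations with the most Uhrf1 had the least Hells, so that their order over the 3 isolations was reversed. With all 22026 genes in the fit, neither passed (adjusted p = 0.0115 for Uhrf1 and 0.0150 for Hells).

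Dnmt1, the maintenance methyltransferase, changed less than its cofactor. It had 130.1, 148 and 163 FPKM at P5 against 72.5, 64.0 and 60.4 at P30, and was the most abundant of the 10 genes at P5. The mean fell from 147 ± 16.5 (SD, n = 3) to 65.7 ± 6.21, 44.6% of the P5 level (difference -1.15, SE 0.13, adjusted p = 0.000770 from limma). Within each isolation there were 0.363, 0.412 and 0.421 FPKM of Uhrf1 per FPKM of Dnmt1 at P5, but 0.0649, 0.0425 and 0.0131 at P30. On the log2(FPKM + 1) scale this ratio was -1.32 ± 0.11 at P5 and -4.30 ± 0.72 at P30, with no overlap (p = 0.1 by an exact permutation test, two-sided as all such tests here, which is as low as 3 isolations an age can reach). The P30 mean of Uhrf1 was 4.65% of its P5 mean.

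The promoter windows of the genes were searched for words of the E2F family, transcription factors known for activating genes of DNA replication. RefSeq windows of GRCm38.p6 run from 250 bases before to 50 after an annotated start, and the 10 genes had 15 of them, since Dnmt1, Dnmt3a and Uhrf1 have several starts. The words TTTCCCGC, TTTGGCGC, TTTCGCGC and TTTGCCGC were counted on both strands, and matches that share bases were each counted. Windows of Dnmt1, Uhrf1, Hells and Ezh2 held a word, 4 of 15, against 2.26% of all 32851 windows, 3.96% of the 11294 windows of genes tested and 9.95% of the 623 windows of genes called higher at P5. Dnmt3b and Tet1, which also fell, held none, and neither did Dnmt3a, Tet2, Tet3 and Ezh1. The word lay at -219 and 33 in Dnmt1, at -185 in Uhrf1, at -62 in Hells and at 3 in Ezh2, counted to its leftmost base from 0 at the start. In Dnmt1 and Uhrf1 the whole window with a word lies downstream of another annotated start of the same gene. These matches are of letters only and binding was not measured. The windows with a word are shown so that the words can be read in place, beside that of Ezh1 as a window without one. They are chr9:20952574-20952873, minus strand (Dnmt1, the third of its windows), chr17:56304063-56304362, plus strand (Uhrf1, the second of its windows), chr19:38930740-38931039, plus strand (Hells), chr6:47594981-47595280, minus strand (Ezh2), and chr11:101226414-101226713, minus strand (Ezh1). Capitals mark the words.
Dnmt1: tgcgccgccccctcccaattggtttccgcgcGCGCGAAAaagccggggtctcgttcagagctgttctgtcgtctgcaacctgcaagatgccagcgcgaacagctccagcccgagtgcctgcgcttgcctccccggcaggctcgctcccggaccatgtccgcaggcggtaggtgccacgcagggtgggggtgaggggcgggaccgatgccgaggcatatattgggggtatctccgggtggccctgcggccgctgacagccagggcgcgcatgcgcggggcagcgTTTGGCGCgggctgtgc
Uhrf1: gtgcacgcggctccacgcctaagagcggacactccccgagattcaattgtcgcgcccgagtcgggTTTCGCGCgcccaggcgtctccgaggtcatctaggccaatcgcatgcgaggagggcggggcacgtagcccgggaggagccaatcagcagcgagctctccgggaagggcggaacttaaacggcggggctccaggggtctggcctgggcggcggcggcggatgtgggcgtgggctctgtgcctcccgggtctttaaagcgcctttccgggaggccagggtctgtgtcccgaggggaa
Hells: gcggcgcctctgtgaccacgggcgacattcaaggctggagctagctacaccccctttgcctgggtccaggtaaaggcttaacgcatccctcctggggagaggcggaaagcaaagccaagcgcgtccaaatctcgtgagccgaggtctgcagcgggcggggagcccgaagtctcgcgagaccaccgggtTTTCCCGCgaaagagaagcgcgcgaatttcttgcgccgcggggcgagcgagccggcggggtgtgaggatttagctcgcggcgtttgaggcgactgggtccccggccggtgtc
Ezh2: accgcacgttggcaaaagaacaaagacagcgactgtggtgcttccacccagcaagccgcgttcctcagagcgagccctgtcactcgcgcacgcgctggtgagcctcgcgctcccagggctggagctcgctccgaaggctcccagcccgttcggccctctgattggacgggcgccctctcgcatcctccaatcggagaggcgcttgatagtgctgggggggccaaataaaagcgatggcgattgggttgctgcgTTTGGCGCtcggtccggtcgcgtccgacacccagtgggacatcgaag
Ezh1: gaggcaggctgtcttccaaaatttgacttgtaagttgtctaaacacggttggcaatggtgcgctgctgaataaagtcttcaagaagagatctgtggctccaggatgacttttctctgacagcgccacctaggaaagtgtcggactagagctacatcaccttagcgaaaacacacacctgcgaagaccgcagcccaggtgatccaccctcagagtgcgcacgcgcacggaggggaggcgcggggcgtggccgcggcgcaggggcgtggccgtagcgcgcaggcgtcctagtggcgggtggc

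By the median, the windows were rich in CpG, the dinucleotide that Dnmt1, Dnmt3a and Dnmt3b methylate. The median was 30 CpG over the 15 windows, 20 over the windows of genes tested and 7 over all windows. The 15 windows ranged from 2 CpG in the first of Dnmt1 to 57 in that of Tet2. The window of Tet1 had 17 and the first of Uhrf1 had 12. Among those shown there were 33 in Dnmt1, 33 in Uhrf1, 34 in Hells, 31 in Ezh2 and 23 in Ezh1.

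**Figure D2:**
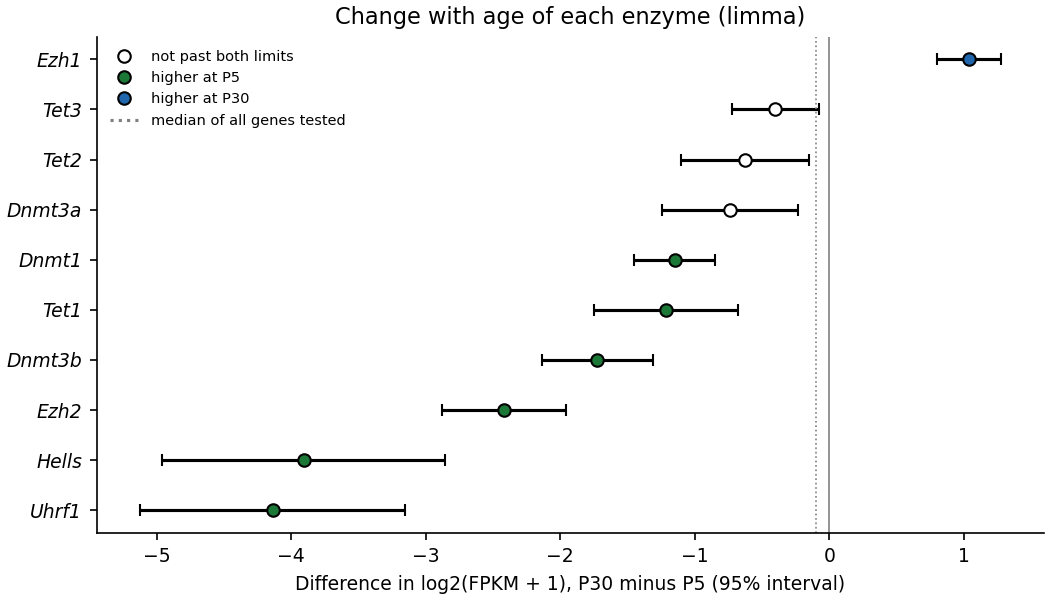
Difference in log2(FPKM + 1) between P30 and P5 for each gene, as points with the 95% interval from limma, filled where both limits were passed. Uhrf1 (-4.14) and Hells (-3.91) lie lowest, only Ezh1 (1.04) lies above 0, and the dotted line marks the median of all genes tested, -0.10.

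Of the enzymes that methylate bare DNA, Dnmt3b fell and Dnmt3a did not pass. Dnmt3b had 36.4, 41.3 and 38.9 FPKM at P5 against 11.1, 12.6 and 9.61 at P30, a narrow range at each age. Its mean fell from 38.9 ± 2.46 (SD, n = 3) to 11.1 ± 1.52 (difference -1.72, SE 0.18, adjusted p = 0.000542 from limma). Dnmt3a had 88.6, 78.6 and 74.5 at P5 and 41.7, 67.5 and 38.6 at P30, so that P30 replicate 2 stood apart from the other two. Its means were 80.6 ± 7.27 and 49.3 ± 15.9 (difference -0.74, 95% interval -1.24 to -0.23, adjusted p = 0.0317). P30 replicate 2 also had the highest pericyte and smooth muscle sum, 6235, against 1891 and 3614 in P30 replicates 1 and 3. Its fibroblast sum was the highest as well, 2493 against 1152 and 1360. So was its upper quartile of FPKM over all genes, 66.4 against 59.0 and 58.8. The RPE, photoreceptor, leukocyte, melanocyte and Schwann cell sums were highest in P30 replicate 1. The part of these in the Dnmt3a values was not tested. Without P30 replicate 2 the Dnmt3a difference was -0.99 (adjusted p = 0.00348 from limma), still under 2-fold in mean FPKM + 1.

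The balance of the pair moved towards Dnmt3a. There were 2.43, 1.90 and 1.91 FPKM of Dnmt3a per FPKM of Dnmt3b at P5 and 3.74, 5.34 and 4.01 at P30. The log2 ratio of FPKM + 1 was 1.03 ± 0.20 (SD, n = 3) at P5 and 2.01 ± 0.28 at P30, without overlap (p = 0.1 by the exact permutation test). The 3 Dnmt genes together summed to 255, 268 and 277 FPKM at P5 and 125, 144 and 109 at P30. Of that sum Dnmt3b was 14.6% ± 0.73 at P5 and 8.83% ± 0.06 at P30. The Dnmt1 share overlapped between ages, 55.1% and 52.6% (p = 0.7 by the exact permutation test). The Dnmt3a share also overlapped, 30.3% and 38.5% (p = 0.2 by the exact permutation test).

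Among the Tet genes, which encode the oxidizing enzymes, the least abundant one fell. Tet1 had 21.8, 18.1 and 18.9 FPKM at P5 against 7.58, 9.67 and 6.60 at P30. The mean fell from 19.6 ± 1.92 (SD, n = 3) to 7.95 ± 1.57 (difference -1.21, SE 0.23, adjusted p = 0.00628 from limma). This call was near its limit, and it was lost without P5 replicate 1, 2 or 3 or P30 replicate 1 or 3 (adjusted p = 0.0359, 0.0336, 0.0310, 0.0101 and 0.0126) and with all genes in the fit (0.0276). The difference itself stayed between -1.27 and -1.10 over these.

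Tet2 had 70.9, 61.8 and 55.5 FPKM at P5 and 30.4, 50.9 and 41.3 at P30. Its means were 62.7 ± 7.73 (SD, n = 3) and 40.9 ± 10.2 (difference -0.63, 95% interval -1.11 to -0.15, adjusted p = 0.0445 from limma). Tet3, the most abundant of the 3 at both ages, had 95.7, 81.0 and 97.9 at P5 and 74.3, 73.7 and 59.7 at P30, means of 91.5 ± 9.23 and 69.3 ± 8.27 (difference -0.40, 95% interval -0.72 to -0.08, adjusted p = 0.0544). Both pairs of groups lay apart but within 2-fold. The 3 genes summed to 188, 161 and 172 FPKM at P5 and 112, 134 and 108 at P30. Tet1 made up 11.3% ± 0.30 of the sum at P5 and 6.69% ± 0.54 at P30, and the shares of Tet2 and Tet3 overlapped between ages (p = 0.8 and p = 0.3 by the exact permutation test).

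The 2 Polycomb methyltransferases moved in opposite directions. Ezh2 had 69.3, 78.5 and 99.9 FPKM at P5 against 12.5, 13.7 and 17.7 at P30. It fell from 82.6 ± 15.7 (SD, n = 3) to 14.6 ± 2.69, 5.65 times lower (difference -2.42, SE 0.20, adjusted p = 0.000272 from limma). Ezh1 had 54.1, 50.9 and 53.8 at P5 and 113, 108 and 109 at P30, the tightest groups of the 10 genes, with an SD of 3.35% and 2.31% of the mean. It rose from 52.9 ± 1.77 to 109.8 ± 2.53, 2.07 times higher (difference 1.04, SE 0.10, adjusted p = 0.000459). Ezh1 was thus close to the 2-fold limit. With a pseudocount of 5 its difference was 0.99, under 2-fold on that scale, while the limit itself was kept on mean FPKM + 1.

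The sum of the pair overlapped between ages. Ezh1 and Ezh2 together had 123, 129 and 154 FPKM at P5 and 125, 122 and 126 at P30, overlapping groups (135.5 ± 16.1 and 124 ± 2.43, SD, n = 3, p = 0.3 by the exact permutation test). Ezh2 supplied 56.2%, 60.7% and 65.0% of that sum at P5 and 10.02%, 11.2% and 13.98% at P30. There were 1.28, 1.54 and 1.86 FPKM of Ezh2 per FPKM of Ezh1 at P5 and 0.111, 0.126 and 0.163 at P30, so that the more abundant of the pair changed in every isolation. The log2 ratio of FPKM + 1 was 0.62 ± 0.26 at P5 and -2.84 ± 0.26 at P30 (p = 0.1 by the exact permutation test).

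**Figure D3:**
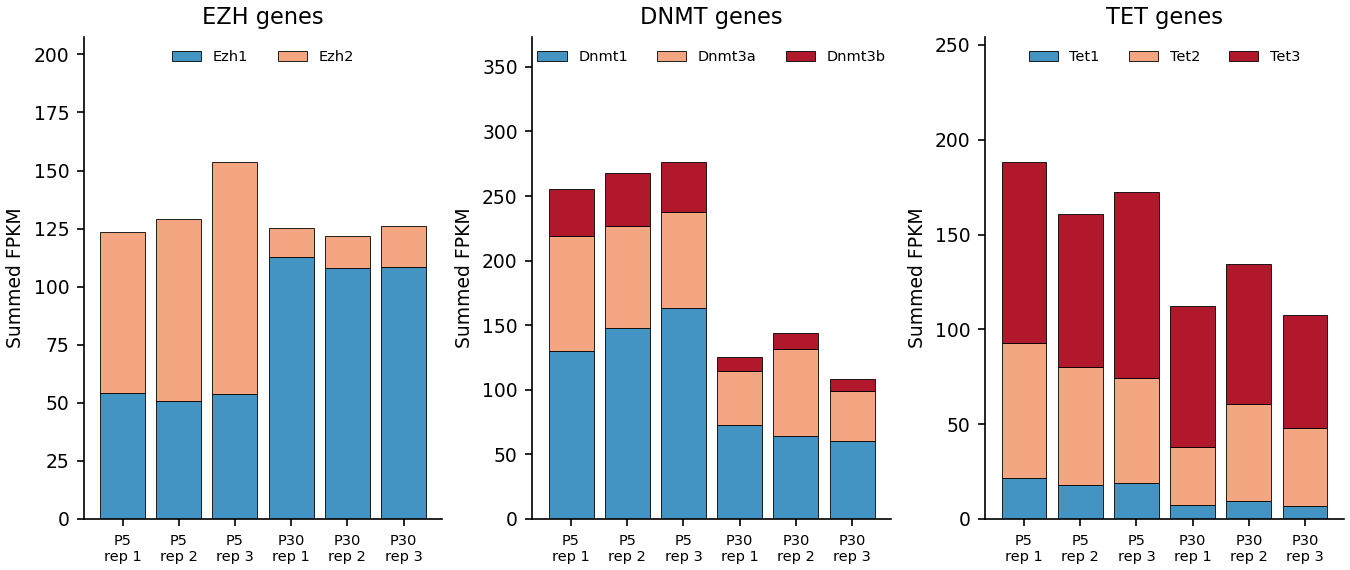
Summed FPKM of the EZH, DNMT and TET genes in each isolation, as bars from 0 stacked by gene. The EZH sum is 122 to 154 in all 6 isolations while Ezh2 goes from 56.2% to 65.0% of it at P5 to 10.02% to 13.98% at P30, and the DNMT and TET sums are lower in every P30 isolation.

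Most of the other subunits of PRC2 had lower FPKM at P30, but few passed the limits. Of 10 core and accessory subunits, 1 fell, 1 rose and 8 did not pass. By these limits 5.82% of all genes tested fell and 5.89% rose. The difference was below 0 in 9 of 10, and the median was -0.50 against -0.10 over all genes tested. At an unadjusted limma p under 0.05, 6 of the 10 were lower and 1 was higher. The share of all genes tested below 0 or at this p was not taken, so these are counts only. The core subunits Eed and Suz12, which the enzyme needs for its activity, had 84.7 ± 8.21 and 172 ± 19.7 FPKM (SD, n = 3) at P5 and 76.8 ± 16.0 and 106 ± 18.9 at P30 (differences -0.16 and -0.71, adjusted p = 0.499 and 0.0110 from limma). The histone-binding subunits Rbbp4 and Rbbp7 differed by -0.57 and -0.45 (adjusted p = 0.00929 and 0.0968 from limma), the first past the limit of p but under 2-fold. The 3 Polycomb-like subunits, which help PRC2 to bind chromatin, differed among themselves. Phf1 had 77.6, 68.3 and 62.6 FPKM at P5 and 227, 222 and 225 at P30, and rose by 1.68 (SE 0.11, adjusted p = 0.000146). Mtf2 had 96.7, 89.7 and 104 at P5 and 27.8, 48.8 and 51.1 at P30, and fell by 1.21 (SE 0.23, adjusted p = 0.00647). The Mtf2 call was lost without any 1 of P5 replicates 1, 2 and 3 and P30 replicates 1 and 2. Phf19, the least abundant of the Polycomb-like genes, had 12.4 ± 1.65 and 3.22 ± 1.68 and missed the limit of p (difference -1.75, adjusted p = 0.0117).

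Polycomb repressive complex 1 (PRC1) binds the mark that PRC2 leaves through its Cbx subunits. Of 20 PRC1 subunits, 2 fell, 1 rose and 17 did not pass, counts near the 5.82% and 5.89% of all genes tested, and the median difference was -0.13. Cbx7 had 6.16, 3.30 and 7.26 FPKM at P5 against 87.9, 97.0 and 93.6 at P30, and rose by 3.89 (SE 0.26, adjusted p = 0.000156 from limma). Cbx2 went the other way, with 18.3, 20.1 and 21.5 at P5 and 4.06, 3.35 and 4.10 at P30, and fell by 2.12 (SE 0.24, adjusted p = 0.000840). Without P5 replicate 2, Cbx2 just missed the limit (adjusted p = 0.0109). Kdm2b, which brings a PRC1 variant to CpG-rich promoters, fell from 49.5 ± 2.99 to 23.9 ± 1.25 (difference -1.02, SE 0.13, adjusted p = 0.00151). Its call was lost without any 1 of P5 replicates 1, 2 and 3 and P30 replicate 2, and with 3 other scalings. The catalytic subunits Ring1 and Rnf2 had differences of 0.68 and -0.73 and did not pass (adjusted p = 0.0122 and 0.0278).

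Of 6 genes that act in the removal of Polycomb marks, 1 rose and 5 did not pass, where 5.89% of all genes tested rose. Kdm6b, a demethylase that reverses the PRC2 mark, had 51.6, 46.3 and 37.7 FPKM at P5 against 184, 235 and 153 at P30. It rose from 45.2 ± 7.00 (SD, n = 3) to 190.5 ± 41.8 (difference 2.04, SE 0.19, adjusted p = 0.000379 from limma). Its relative Kdm6a had 95.9 ± 16.3 and 90.4 ± 21.8, overlapping groups (difference -0.10, adjusted p = 0.725).

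**Figure D4:**
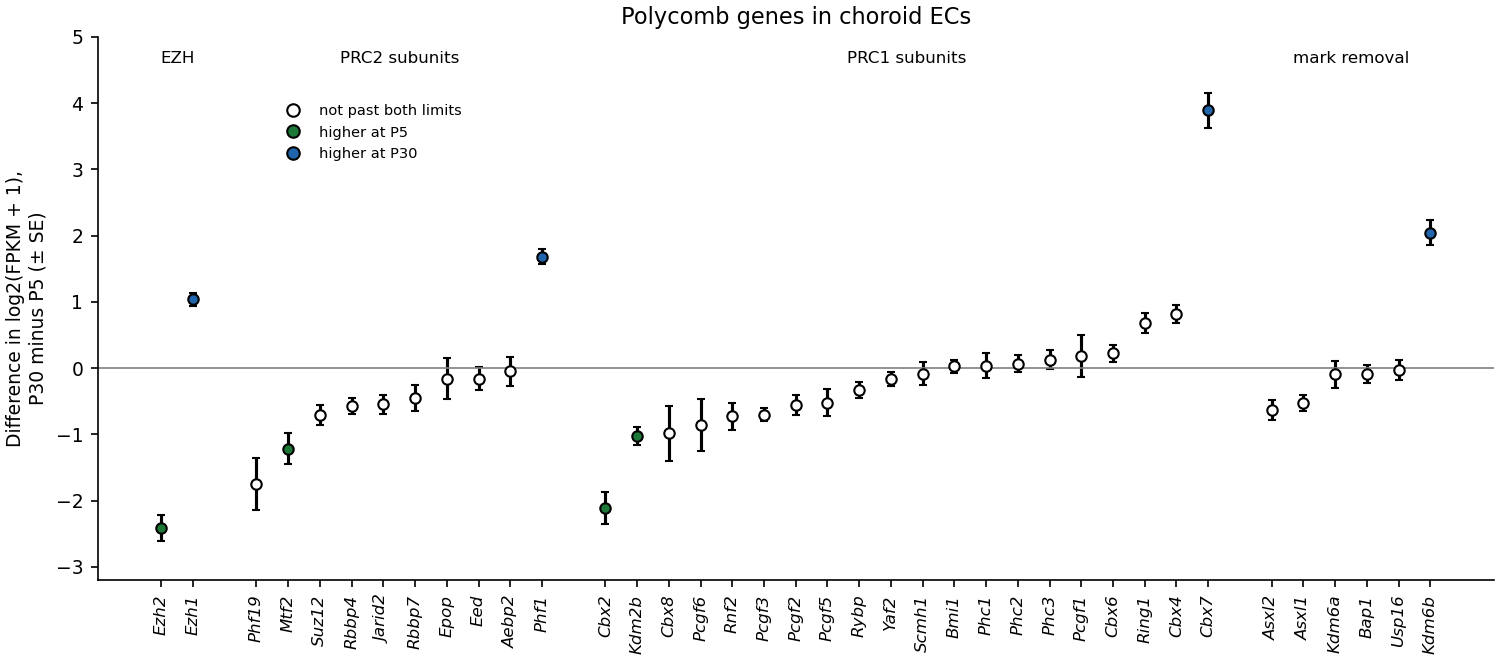
Difference in log2(FPKM + 1) between P30 and P5 (points, with the SE from limma) for Ezh2 and Ezh1, the other PRC2 subunits, the PRC1 subunits and the genes that act in the removal of Polycomb marks, filled where both limits were passed. Ezh1 (1.04), Phf1 (1.68), Cbx7 (3.89) and Kdm6b (2.04) lie above 0 where Ezh2 (-2.42), Mtf2 (-1.21), Cbx2 (-2.12) and Kdm2b (-1.02) lie below.

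Among 16 partners and readers of DNA methylation, 15 were tested, 2 fell, 1 rose and 12 did not pass (median difference -0.22). The shares over all genes tested were 5.82% that fell and 5.89% that rose. Pclaf, a replication factor that helps to bring Dnmt1 to new DNA and is listed under an older Rik symbol, had 83.7, 132 and 166 FPKM at P5 and was listed at 0, 1.24 and 0 at P30 (difference -6.56, SE 0.41, adjusted p = 0.000126 from limma). Cdca7, which recruits Hells to chromatin, had 18.9, 25.1 and 43.0 at P5 and 6.26, 2.92 and 1.59 at P30, and fell by 2.76 (SE 0.46, adjusted p = 0.00382). The Cdca7 call was lost without any 1 of P5 replicates 1, 2 and 3 and P30 replicate 2. Zbtb4, which binds methylated DNA, rose from 63.0 ± 11.3 to 181 ± 14.9 (difference 1.52, SE 0.15, adjusted p = 0.000492). Uhrf2, the paralog of Uhrf1, had 143 ± 12.01 and 101 ± 7.30 and did not pass (difference -0.50, adjusted p = 0.0118), so that at P30 it had more FPKM than Uhrf1 in each isolation, as it had at P5. Dnmt3l was listed at 0 in all 6 isolations.

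Of 14 genes around the Tet enzymes and base excision repair, 13 were tested, 3 fell, 0 rose and 10 did not pass. Over all genes tested 5.82% fell and 5.89% rose. The median difference of the list was -0.44. At an unadjusted limma p under 0.05, 8 of the 13 were lower and 2 were higher at P30. The share of all genes tested at this p was not taken. Apex1, an endonuclease of base excision repair, fell from 82.4 ± 10.9 FPKM (SD, n = 3) to 22.7 ± 6.79 (difference -1.85, SE 0.22, adjusted p = 0.00107 from limma). Cxxc5, which binds unmethylated CpG, fell from 77.4 ± 6.01 to 35.0 ± 6.95 (difference -1.14, SE 0.17, adjusted p = 0.00228). Idh2, a mitochondrial source of the oxoglutarate that Tet enzymes consume, fell from 324 ± 16.6 to 158 ± 9.22 (difference -1.03, SE 0.09, adjusted p = 0.000373). The Apex1 call was lost with all genes in the fit, that of Cxxc5 also without any 1 of the P5 isolations, and that of Idh2 without P5 replicate 2 or P30 replicate 1 and with 2 other scalings. Tdg, the glycosylase that removes the oxidized bases, had 9.92 ± 5.13 and 7.91 ± 3.35, within the spread between isolations (adjusted p = 0.686).

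The genes were set beside 14 genes of replication and mitosis. Of these, 13 fell and 1, which was also lower at P30, did not pass, with a median difference of -3.13. Over all genes tested 5.82% fell, and the median was -0.10. The list leaves out Pcna, a replication gene counted here with the partners and readers of DNA methylation. Pcna had more FPKM in every P30 isolation than in any P5 isolation but did not pass (difference 0.35, adjusted p = 0.0582 from limma). Mki67, a marker of dividing cells, had 110, 147 and 204 FPKM at P5 against 1.64, 3.17 and 1.88 at P30 (difference -5.56, SE 0.29, adjusted p = 7.91e-05 from limma). Uhrf1 and Hells had larger differences than the median of this list, and Ezh2, Dnmt3b, Tet1 and Dnmt1 smaller ones. The 14 genes summed to 1290.5, 1711 and 2071 FPKM in P5 replicates 1, 2 and 3, and Dnmt1, Uhrf1, Hells and Ezh2 each had their lowest P5 value in replicate 1 and their highest in replicate 3. Dnmt3a and Tet2 had the reverse, and the pericyte and smooth muscle sum, 1531, 753 and 338, was also highest in replicate 1 and lowest in replicate 3. At P30, Hells and Ezh2 were lowest in replicate 1 and highest in replicate 3, where the 14 genes summed to 210.1 and 240.4, while Dnmt1 and Uhrf1 were highest in replicate 1. With 3 isolations an age these orders are values only, and the part of other cells in them was not tested.

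**Figure D5:**
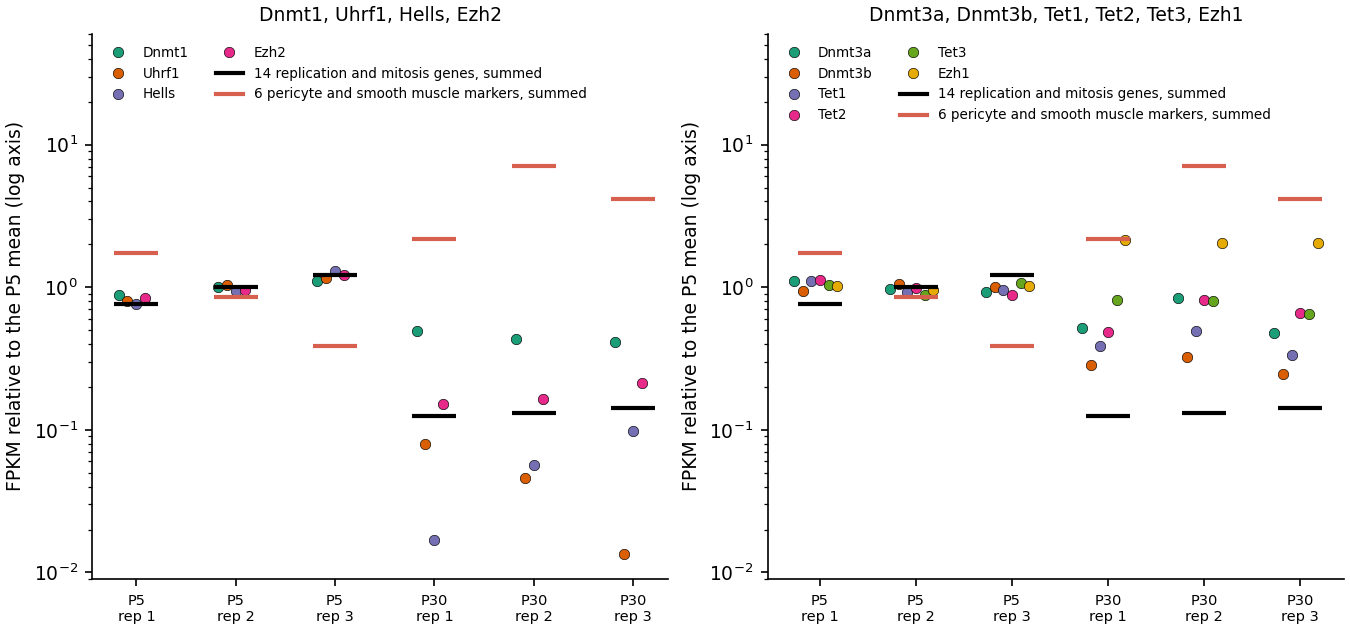
FPKM of each gene in each isolation relative to its own P5 mean (points, log axis), in 2 panels of 4 and 6 genes, with the sum of 14 replication and mitosis genes (black bars) and of 6 pericyte and smooth muscle markers (red bars) on the same scale. At P5 the genes of the left panel are lowest in replicate 1 and highest in replicate 3, as is the black bar, from 1290.5 to 2071 FPKM. At P30 Hells, Ezh2 and the black bar keep this order, whereas Dnmt1 and Uhrf1 have the reverse.

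The order of the 10 genes by level changed with age. At P5 Dnmt1 was highest, followed by Tet3, Ezh2, Dnmt3a, Tet2, Uhrf1, Hells, Ezh1, Dnmt3b and Tet1. The P5 ranges of neighbours overlapped except between Dnmt1 and Tet3, Dnmt3a and Tet2, Ezh1 and Dnmt3b, and Dnmt3b and Tet1. At P30 Ezh1 was highest, followed by Tet3, Dnmt1, Dnmt3a, Tet2, Ezh2, Dnmt3b, Tet1, Hells and Uhrf1. The P30 ranges of neighbours were apart between Ezh1 and Tet3, Tet2 and Ezh2, and Tet1 and Hells, and overlapped elsewhere.

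For each gene that passed, the nearest of the genes tested were found by the root mean square difference in log2(FPKM + 1) over the 6 isolations, with the mean of each gene taken off. The nearest to Uhrf1 were Tk1 (0.220), a thymidine kinase, and Igf2bp3 (0.236), and the nearest to Hells were Cenpi (0.154), a centromere protein, and Rad54l (0.207), a recombination protein. Those of Dnmt1 were Ppil1 (0.0509) and Cd93 (0.0571), and those of Dnmt3b were Vash1 (0.0844) and Cd300a (0.111). Cxxc5 (0.0583) was among the nearest to Tet1, after Zfp521 (0.0509). Ezh2 had Slc43a1 (0.149) and Tlr1 (0.170), and Ezh1 had Coq10a (0.0574) and Tapbp (0.0583). These distances describe likeness over 6 isolations of 2 ages and were not tested.

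In the GENCODE annotation of mm9, the build of the files, Tet3 and Ezh2 both lie on chromosome 6. Uhrf1 spans chromosome 17, 56442744 to 56462909, Hells chromosome 19, 39005405 to 39045541, and Dnmt1 chromosome 9, 20711650 to 20757317. Ezh2 spans chromosome 6, 47480273 to 47545340, and Ezh1 chromosome 11, 101052429 to 101087777. Dnmt3a lies at chromosome 12, 3806007 to 3914443, Dnmt3b at chromosome 2, 153475186 to 153513466, Tet1 at chromosome 10, 62267318 to 62361866, Tet2 at chromosome 3, 133126643 to 133207354, and Tet3 at chromosome 6, 83312367 to 83391672. The FPKM values cover each gene as a whole, so isoforms and exons are not told apart.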

How the data were processed

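RNA of VE-Cadherin-positive cells sorted from dissected RPE/choroid was sequenced, with 3 isolations per age. The authors processed reads with CASAVA 1.8.2 and FastQC, aligned them to mm9 with TopHat and deposited FPKM per gene symbol from Cufflinks with GC and upper quartile normalization. The annotation and the other versions are not given in the sources used here. Ratios of low FPKM between samples showed no pile-up that would give whole reads (at most 4.58% of genes in a bin of 0.05 log2 units).

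From these values, log2(FPKM + 1) was fitted in R 4.3.3 by limma 3.58.1 (lmFit, eBayes with a trend, no block, checked on simulated data) for genes whose mean reached 5 FPKM at either age, and called at an adjusted p under 0.01 and 2-fold in mean FPKM + 1. Other values came from Python 3.11.15 with scipy 1.17.1. Samples were grouped by their titles. The genes named were the 10 genes, up to 4 called genes per direction of each list, stated core genes and nearest profiles, and any further gene was chosen after its values were seen. Members and lists were chosen with earlier results of these data known. Promoter windows are from RefSeq on GRCm38.p6. Alternatives were other pseudocounts, minimum FPKM, no trend, other scalings, other limits, a replicate block and each isolation left out.

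Same-numbered isolations had deviations from their age means that correlated at -0.06, -0.09 and -0.03, so the numbers were not taken as pairs. The labels call the isolations of an age independent.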

Additional observations from a re-analysis of the deposited data

How the results depend on the processing

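The direction of each of the 10 genes was the same under every alternative run, and the calls of Dnmt1, Dnmt3b, Ezh1 and Ezh2 and the lack of a call for Dnmt3a, Tet2 and Tet3 held in all 15 for each. The 2-fold limit stayed on mean FPKM + 1 when the pseudocount of the fit was changed, so these alternatives did not test it, and with a pseudocount of 5 the differences of Ezh1 and Tet1 were 0.99 and -0.93. The count of the 10 genes that fell was 3 with no minimum FPKM, where all 22026 genes were tested, 5 with the replicate number as a block, where Tet1 was lost (the numbers do not pair the samples), and 5 to 6 with an isolation left out, and the count that rose was 1 in all. The change in the log2 ratio of Ezh2 to Ezh1 was -3.14 with a pseudocount of 5 in place of -3.46, and -3.60 to -3.32 with an isolation left out. That of Dnmt3a to Dnmt3b was 0.83 to 1.10. Counts in the lists of partners, run after the data were seen, moved more. With no minimum FPKM, 1 partner or reader of DNA methylation, 1 gene around the Tet enzymes and 0 PRC2 subunits fell. With the replicate block 1 partner or reader and 0 PRC2 subunits fell. PRC2 subunits that fell were 2 with a pseudocount of 5 or an adjusted p under 0.05, and 0 with no trend or with scaling to endothelial markers. PRC1 subunits that fell were 1 with quantile, median or endothelial marker scaling. With an isolation left out, 1 to 2 partners or readers, 1 to 4 genes around the Tet enzymes, 0 to 2 PRC2 and 0 to 2 PRC1 subunits fell, and 0 to 1 genes around the Tet enzymes rose. Of the genes named that were not called, Tdg, Eed and Kdm6a changed sign with an isolation left out. Tdg, at -0.25 with all isolations, ranged from -0.63 to 0.0916, the highest without P5 replicate 1, and was 0.0558 without P30 replicate 3. Eed, at -0.16, ranged from -0.27 to 0.0231 and was above 0 without P30 replicate 3. Kdm6a, at -0.10, ranged from -0.28 to 0.00743 and was above 0 without P30 replicate 1. The causes were not tested. Over all genes tested, 726 were higher at P5 and 735 at P30, against 296 and 242 with no minimum FPKM, 960 and 1130 at an adjusted p under 0.05, and 427 and 519, 291 and 404, and 297 and 396 without P5 replicate 1, 2 or 3. Depth is unknown, which limits the precision of low values such as those of Uhrf1 and Hells at P30.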

Other observations

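Pcna, the sliding clamp of replication to which Dnmt1 binds, did not fall with the other replication genes. It had 264, 312 and 334 FPKM at P5 against 368, 431 and 362 at P30 (difference 0.35, SE 0.12, adjusted p = 0.0582 from limma), and the P30 values all lay above the P5 values. The reference lists the pseudogenes Pcna-ps1 and Pcna-ps2. How reads were divided between the copies is not given, so the level of Pcna is uncertain. The part of the copies in the difference between ages was not tested.

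Genes known to be silenced by these enzymes were listed at low levels at both ages. Of all 22026 genes, 6253 were listed at 0 in all 6 isolations. Of 11 germline genes that DNA methylation silences, 5 were listed at 0 in all 6 isolations, and the highest value of any was 8.17 FPKM. Their sum was 11.8 to 13.8 FPKM at P5 and 13.2 to 15.9 at P30, and 0 of the 2 tested passed (Sycp3 and Brdt, limma adjusted p = 0.264 and 0.926, with 0 under an unadjusted p of 0.05). Of 41 Polycomb target genes, namely Cdkn2a, Cdkn2b and the Hox genes, 37 were listed at 0 in all isolations and 0 reached the minimum for the test. The highest was Cdkn2b, an inhibitor of the cell cycle, with 1.19, 0.99 and 0 FPKM at P5 and 0, 5.45 and 4.88 at P30.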
